A study of Rattus norvegicus with 22 samples.

Results

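Ribosome biogenesis factors are the proteins that transcribe, cut, modify, fold and export the parts of new ribosomes without being part of the finished particle. Their mRNA was followed here in the liver of rats that breathed ozone or air after surgery on the vagus nerve. The set was given as 52 gene symbols of such factors, and all 52 were found among the 14971 genes of the deposited table. A mean of at least 10 normalised counts over all libraries was needed for a test, which 51 of them and 12424 genes in all reached. Ebna1bp2, a large-subunit assembly factor, was the exception, with 0.851 to 22.8 normalised counts per library, and below it is counted only among the promoters.

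Liver RNA of 22 rats was sequenced, 1 library per rat, in a 2-by-2 layout of surgery and exposure. Each rat was operated at 12 weeks of age, either with a sham operation or with a hepatic vagotomy, in which the branch of the vagus nerve that runs to the liver is severed. After 5 to 6 days of recovery the rats were exposed to air or to 1.0 ppm ozone for 4 hours a day on 1 or 2 days, and the liver was taken within hours. The 4 groups were sham with air (5 rats), vagotomised with air (6 rats), sham with ozone (6 rats) and vagotomised with ozone (5 rats). The labels give neither strain nor sex, nor which rats were exposed on 1 day and which on 2. All rats, controls included, had undergone surgery, and no group without an operation was measured.

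Ribosome production starts in the nucleolus, where RNA polymerase I transcribes the long ribosomal RNA precursor. Small nucleolar ribonucleoproteins, RNA-guided particles, modify that precursor, and 2 sets of assembly factors then mature the small and the large subunit and escort them to the cytoplasm. Genes of this programme are known for being expressed together in growing cells, and in liver for being induced after partial hepatectomy, when hepatocytes prepare to divide.

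The values are normalised counts, the reads of a gene divided by 1 size factor per library. Libraries held 14098863 to 21141337 assigned reads. All 8 hepatocyte markers examined were in the table, with a summed level of 1555420 to 2290630 normalised counts per library, and no marker of any of the other liver cell types that was in the table was at 0 in a whole group. Because whole tissue was sequenced, fewer cells of a type and less RNA per cell cannot be told apart. In the short ribosomal RNA that is cut from the polymerase I precursor and ends up in the large subunit (the row 5_8S_rRNA), 4 libraries stood apart, with 38.1 to 179.5 normalised counts against at least 342 in the other 18. The 4 belong to 3 groups, sham ozone (library 3), vagotomised ozone (library 1) and vagotomised air (libraries 1 and 5). For many results that rest on them, values without them are given as well.

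Ozone exposure went with higher mRNA of most ribosome biogenesis factors, in sham and in vagotomised rats. In sham rats 35 of 51 members rose and 0 fell (limma, adjusted p under 0.05), where 14.6% of all genes tested rose and 13.8% fell. In vagotomised rats 27 members rose and 0 fell, where 11.4% of all genes rose and 9.63% fell. The median change of the members was 0.52 on the log2 scale in sham rats and 0.41 in vagotomised rats, beside 0.01 and -0.01 over all genes tested. Only 7 members in sham rats and 1 in vagotomised rats passed the test with a change of at least 2-fold. Changes here and below are differences of mean log2(normalised count + 1) between groups, with the standard error of limma.

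The rise showed in each ozone library. Averaged over the 51 members, sham ozone libraries stood 0.48 to 0.78 above the sham air mean on the log2 scale, and vagotomised ozone libraries stood 0.36 to 0.54 above it. Sham air libraries lay between -0.10 and 0.10 and vagotomised air libraries between 0.01 and 0.15, so no air library reached an ozone library. In each sham ozone library 47 or 48 of the 51 members were above their sham air mean, against 43 or 44 in each vagotomised ozone library and 11 to 37 in the air libraries. The median over all genes moved by no more than 0.02 in any library. The values are already scaled by 1 size factor per library, which tends to hold that median near 0. For 23 members (45.1%) every sham ozone library was above every sham air library, against 8.15% of all genes, and for 14 members (27.5%) the same held in vagotomised rats, against 6.54%. For 0 members was each ozone library below each air library, against 7.21% and 5.21% of all genes.

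**Figure D1:**
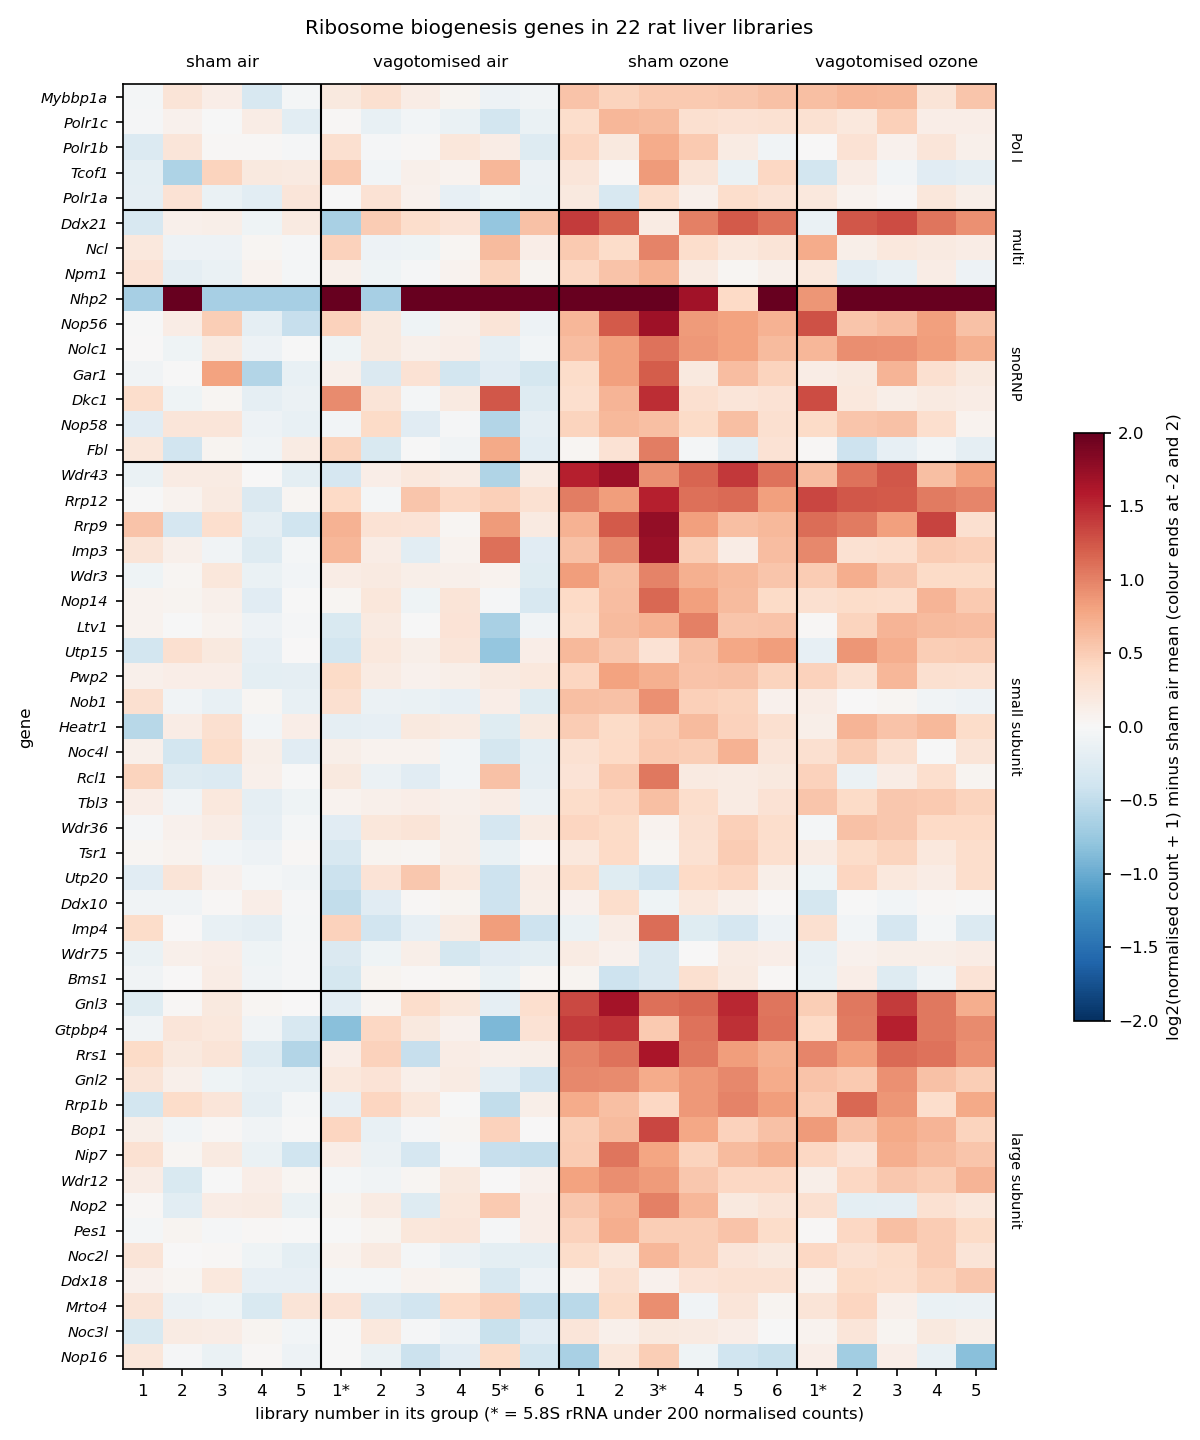
Each cell is the log2(normalised count + 1) of 1 ribosome biogenesis gene (rows, 51 genes by role) in 1 library (columns, 22 libraries in 4 groups) minus the gene's sham air mean, and asterisks mark the 4 libraries with short ribosomal RNA under 200. The 11 ozone columns are mostly red, with 43 to 48 of 51 genes above the sham air mean, while the air columns are mixed.

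Members rose in each role, with different shares. Of the large-subunit factors 11 of 15 rose in each surgery group, with medians of 0.66 and 0.42 in sham and vagotomised rats. Among the 21 small-subunit factors 15 and 10 rose, with medians of 0.46 and 0.34. Of the 7 proteins of small nucleolar ribonucleoproteins 5 and 3 rose, with medians of 0.61 and 0.48. Of the 5 members that act in polymerase I transcription 2 rose in each surgery group, with medians of 0.33 and 0.13, and of the 3 multifunctional nucleolar proteins 2 and 1 rose. Differences between roles were not tested.

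**Figure D2:**
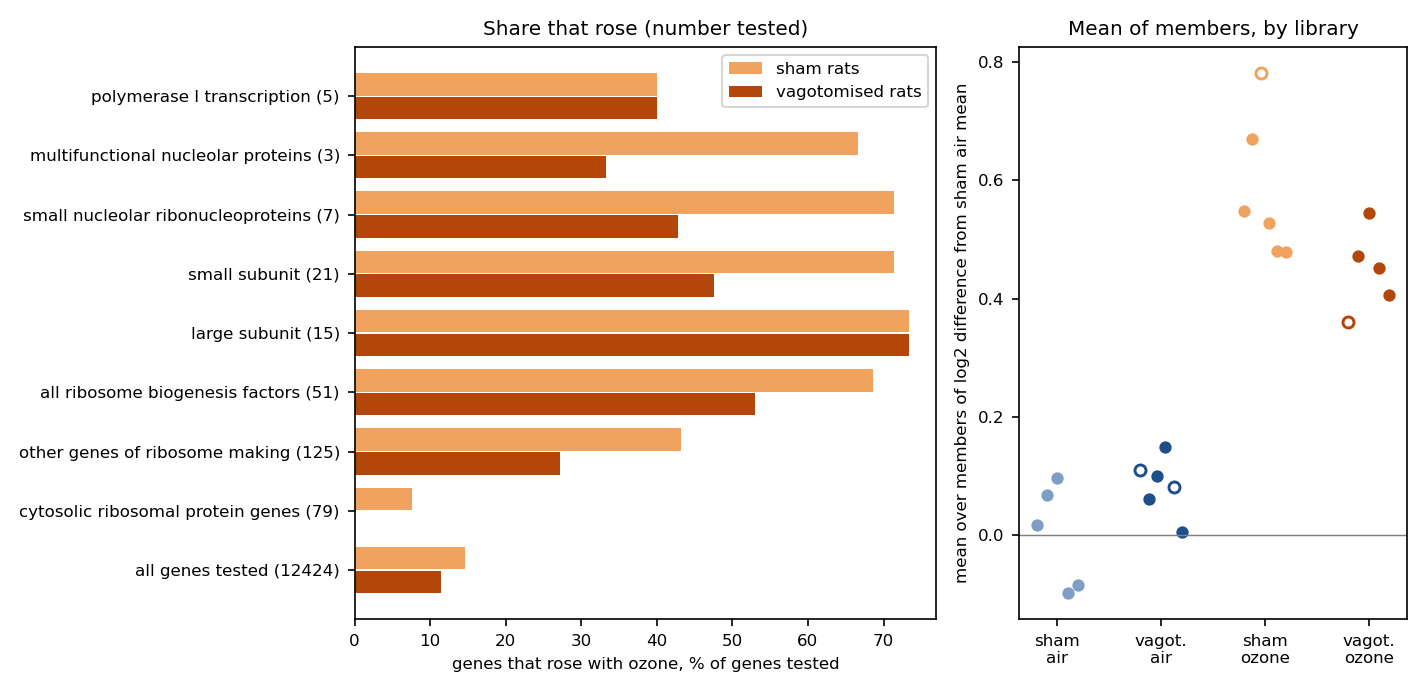
Left, the share of genes tested that rose with ozone (percent, adjusted p under 0.05) in sham and vagotomised rats for each role, for other genes of ribosome making, for cytosolic ribosomal protein genes and for all genes, with the number tested in brackets; right, the mean over 51 members of the log2 difference from the sham air mean, 1 point per library, open for the 4 libraries low in the short ribosomal RNA. The 51 factors reach 35 and 27 genes that rose, and the ozone libraries (0.36 to 0.78) lie above all air libraries (-0.10 to 0.15).

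Since the members rose together, their promoters were searched for short sequences that are known in promoters of this programme. RefSeq promoters of build GRCr8, another build than that of the files, were found by symbol for 47 of the 52 members. None was found for Gnl2, Bop1, Wdr43, Rrs1 and Tbl3, all of which rose in both surgery groups, so only members that rose are missing. The E-box CACGTG, the core site bound by Myc and related factors, stood in the 250 bases before the start site in 8 of 47 members (17.02%), against 8.12% of 9858 promoters of genes tested and 5.59% of all 33469 promoters. The ETS-type sequence CCGGAAGT, read on both strands, stood in 11 members (23.4%), against 6.85% and 3.10%. Members that rose in at least 1 ozone comparison are set beside the rest, which are those that passed in neither and the untested Ebna1bp2. The E-box stood in 5 of 31 (16.1%) against 3 of 16 (18.8%), and CCGGAAGT in 6 of 31 (19.4%) against 5 of 16 (31.3%). The E-box variant CACGCG was in 7 members (14.9%) beside 14.1% of promoters of genes tested, and the palindrome of NRF1 in 1 member (2.13%) beside 1.80%. A match describes these letters in this window and is no evidence of binding. Promoters of 6 members that rose in both surgery groups are printed to show where these letters lie, 200 bases up to the start site, 5′ to 3′, with capitals for CACGTG and for CCGGAAGT or its reverse complement. Gnl3, Pes1, Ltv1 and Mybbp1a show the E-box, at 25, 50, 61 and 156 bases before the start, and Nop58 and Ddx21 show the ETS-type sequence.
Gnl3: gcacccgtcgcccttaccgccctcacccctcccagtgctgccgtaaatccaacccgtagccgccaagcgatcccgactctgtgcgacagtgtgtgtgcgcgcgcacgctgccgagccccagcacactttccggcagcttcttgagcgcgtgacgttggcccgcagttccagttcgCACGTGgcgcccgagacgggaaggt
Pes1: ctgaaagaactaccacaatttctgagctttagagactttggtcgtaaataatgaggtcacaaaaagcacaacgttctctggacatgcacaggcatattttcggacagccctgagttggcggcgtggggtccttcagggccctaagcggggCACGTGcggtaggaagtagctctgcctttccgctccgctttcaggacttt
Ltv1: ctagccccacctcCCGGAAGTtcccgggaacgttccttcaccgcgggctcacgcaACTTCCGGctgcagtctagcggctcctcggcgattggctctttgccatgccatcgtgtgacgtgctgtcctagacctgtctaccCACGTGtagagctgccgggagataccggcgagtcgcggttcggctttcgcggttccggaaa
Mybbp1a: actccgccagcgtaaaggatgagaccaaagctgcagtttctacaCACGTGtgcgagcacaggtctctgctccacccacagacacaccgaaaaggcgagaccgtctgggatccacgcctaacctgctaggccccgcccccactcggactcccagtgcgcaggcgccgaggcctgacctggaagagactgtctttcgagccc
Nop58: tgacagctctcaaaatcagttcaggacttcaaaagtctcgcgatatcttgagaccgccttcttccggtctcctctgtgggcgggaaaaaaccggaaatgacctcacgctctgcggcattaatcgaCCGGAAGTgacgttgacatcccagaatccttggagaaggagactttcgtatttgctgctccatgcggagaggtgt
Ddx21: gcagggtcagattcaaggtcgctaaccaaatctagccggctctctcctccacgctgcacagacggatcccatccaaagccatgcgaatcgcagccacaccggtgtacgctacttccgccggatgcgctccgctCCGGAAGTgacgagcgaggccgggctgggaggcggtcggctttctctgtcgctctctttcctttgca
Ltv1 holds both kinds, with CCGGAAGT once on each strand upstream of its E-box. In Gnl3 and Pes1 the E-box lies close to the start site, in Mybbp1a further upstream.

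Of the 5 members in polymerase I transcription 2 rose in both surgery groups, Mybbp1a and Polr1c. Mybbp1a, a nucleolar protein that binds transcription regulators and acts on ribosomal gene transcription, was at 619, 763, 698, 509.6 and 615 normalised counts in the sham air libraries and 868 to 951 with a median of 920.2 in the sham ozone libraries. In vagotomised rats it was 589 to 789.9 with a median of 679.9 with air and 966, 1003, 996, 763 and 934 with ozone. All sham ozone libraries were above all sham air libraries, whereas vagotomised ozone library 4 fell inside the range of the vagotomised air libraries. The change was 0.53 ± 0.10 in sham rats (limma adjusted p = 0.000386) and 0.46 ± 0.10 in vagotomised rats (limma adjusted p = 0.0021).

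Polr1c, a subunit shared by RNA polymerases I and III, rose by a similar amount. Sham air libraries held 271, 292, 274, 307 and 238 normalised counts and sham ozone libraries 338 to 437 with a median of 347. With vagotomy the values were 213 to 279.9 with a median of 251 in air and 340.4, 319.7, 386, 303 and 301 in ozone. Ozone and air libraries did not overlap in either surgery group, and the change was 0.43 ± 0.10 (limma adjusted p = 0.00279) in sham and 0.39 ± 0.10 (limma adjusted p = 0.00744) in vagotomised rats. The 2 catalytic-core subunits of polymerase I did not pass the test in either group. Polr1b differed by 0.33 ± 0.13 in sham rats (limma adjusted p = 0.066; 0.0222 with the replicate number as a block) and by 0.07 ± 0.13 in vagotomised rats (limma adjusted p = 0.749), and Polr1a by 0.16 and 0.13. Tcof1, the treacle protein that takes part in transcription of ribosomal genes, was 32.1, 23.8, 51.1, 42.5 and 42.1 in sham air, 33.8 to 67.4 with a median of 44.2 in sham ozone, 34.0 to 59.2 with a median of 39.5 in vagotomised air and 28.6, 41.3, 35.6, 31.7 and 32.7 in vagotomised ozone. It differed by 0.27 ± 0.20 and -0.33 ± 0.20 (limma adjusted p = 0.335 and 0.274), and its groups overlapped.

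Among the multifunctional nucleolar proteins Ddx21, an RNA helicase that links polymerase I transcription to precursor processing, rose in both surgery groups. Sham air libraries held 703, 942, 949, 828 and 998 normalised counts, and sham ozone libraries 986 to 2301 with a median of 1926. Vagotomised rats had 510.1 to 1310.2 with a median of 1085 in air and 801, 2068, 2157, 1849.8 and 1655 in ozone. Within each of the 3 groups that contain them, the 4 libraries low in the short ribosomal RNA were the lowest for Ddx21, and apart from them the ozone libraries were all above the air libraries. The change was 1.01 ± 0.27 in sham rats (limma adjusted p = 0.00626) and 0.83 ± 0.27 in vagotomised rats (limma adjusted p = 0.0275). Without the 4 libraries it was 1.18 and 0.71 (limma adjusted p = 1.05e-07 and 0.000193). The call in vagotomised rats was lost on leaving out any 1 of vagotomised air libraries 1 and 5 and vagotomised ozone libraries 2, 3, 4 and 5, with adjusted p from 0.0509 to 0.0884 in limma.

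Ncl, nucleolin, and Npm1, nucleophosmin, are abundant nucleolar RNA-binding chaperones. Ncl stood at 1202, 971, 970.0, 1066 and 1022 normalised counts in sham air and at 1212 to 2072 with a median of 1336 in sham ozone, with no overlap. Its change in sham rats was 0.45 ± 0.15 (limma adjusted p = 0.0265), and it did not pass without any 1 of sham air libraries 2, 3 and 5 or sham ozone library 3 (limma adjusted p = 0.0505 to 0.0633). Without all 4 libraries low in the short ribosomal RNA it passed (0.34, limma adjusted p = 0.00184). With equal column totals it did not (0.35, limma adjusted p = 0.0864). In vagotomised rats Ncl was 967 to 1617 with a median of 1104 in air and 1748, 1131, 1204, 1176 and 1151 in ozone, a difference of 0.10 ± 0.15 that did not pass (limma adjusted p = 0.698). Without those 4 libraries the difference was 0.17 (limma adjusted p = 0.179). Npm1 was 1332, 976, 1010.0, 1155 and 1068 in sham air and 1131 to 1787 with a median of 1352 in sham ozone, and the groups overlapped. Its difference of 0.33 ± 0.13 in sham rats just missed the threshold (limma adjusted p = 0.0542), and in vagotomised rats it was -0.12 ± 0.13. Without those 4 libraries the differences of Npm1 were 0.26 and -0.09 (limma adjusted p = 0.0661 and 0.656). Processed pseudogenes of Npm1 exist in rodent genomes, and how reads with several matches were counted is not given in the sources used here, so its level is uncertain.

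Of the ribonucleoprotein proteins Nolc1, Nop56 and Nop58 rose in both surgery groups. Nolc1, a chaperone of small nucleolar ribonucleoproteins, had the smallest p of them. Its libraries held 207, 195, 234, 192 and 206 normalised counts in sham air and 316 to 441 with a median of 362 in sham ozone. In vagotomised rats they held 183 to 237 with a median of 211 with air and 326, 396, 392, 368 and 339.7 with ozone. No ozone library overlapped an air library of the same surgery, and the change was 0.81 ± 0.10 in sham rats (limma adjusted p = 2.45e-06) and 0.79 ± 0.10 in vagotomised rats (limma adjusted p = 5.66e-06).

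Nop56, Nop58 and Fbl form the protein core of box C/D particles, which methylate ribose in ribosomal RNA, Fbl being the methyltransferase. Nop56 held 81.2, 91.2, 116, 72.4 and 59.5 normalised counts in sham air and 131 to 268 with a median of 147 in sham ozone. In vagotomised rats it held 76.7 to 113 with a median of 91.0 with air and 200.3, 121, 127, 146 and 123 with ozone. Groups did not overlap in either surgery group, and Nop56 rose by 0.99 ± 0.19 (limma adjusted p = 0.000392) and by 0.63 ± 0.19 (limma adjusted p = 0.0186, and 0.0575 without vagotomised ozone library 1). Without all 4 libraries low in the short ribosomal RNA the latter change was 0.62 (limma adjusted p = 0.0116). Nop58 held 149.9, 208, 208, 164 and 158 in sham air, 219 to 275 with a median of 254 in sham ozone, 116 to 229 with a median of 162 in vagotomised air and 229.8, 259, 265, 223 and 185 in vagotomised ozone. It rose by 0.50 ± 0.14 and 0.50 ± 0.14 (limma adjusted p = 0.00969 and 0.012), and the latter call was lost without the 4 libraries low in the short ribosomal RNA (0.40, limma adjusted p = 0.0612). Fbl itself was 119.5, 77.3, 106, 96.5 and 114 in sham air, 87.1 to 207 with a median of 114 in sham ozone, 82.4 to 173 with a median of 98.7 in vagotomised air and 103, 75.8, 90.1, 98.0 and 89.6 in vagotomised ozone, and the groups overlapped. It did not pass, at 0.23 ± 0.20 and -0.26 ± 0.20 (limma adjusted p = 0.416 and 0.396), and without those 4 libraries 0.07 and -0.06.

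Dkc1, Gar1 and Nhp2 belong to box H/ACA particles, which convert uridine to pseudouridine. Dkc1, the catalytic subunit, did not pass in either comparison (0.56 and 0.00, limma adjusted p = 0.118 and 0.993). Both differences include the 4 libraries low in the short ribosomal RNA, which held the highest Dkc1 of their groups. Sham ozone library 3 held 360 normalised counts, against 207 at most in the rest of its group. Vagotomised ozone library 1 held 318 against at most 150, and vagotomised air libraries 1 and 5 held 248 and 307 against at most 155. Gar1 rose by 0.61 ± 0.22 in sham rats (limma adjusted p = 0.0365), with 29.4, 30.7, 54.8, 20.3 and 27.7 normalised counts in sham air and 35.4 to 72.6 with a median of 45.2 in sham ozone. Its call was lost without any 1 of sham air libraries 1, 2, 4 and 5 and sham ozone libraries 2, 3 and 5 (limma adjusted p = 0.0554 to 0.127), and without the 4 libraries low in the short ribosomal RNA (0.49, limma adjusted p = 0.0874).

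Nhp2 was read at the edge of detection. It was at 0 in 4 of the 5 sham air libraries and at 8.92 normalised counts in the fifth one, sham air library 2, and it was 1.09 to 36.4 with a median of 17.7 in sham ozone. In vagotomised rats it was 0 to 22.98 with a median of 13.1 in air and 1.91, 16.3, 29.3, 8.91 and 27.99 in ozone. The fitted change of 2.93 ± 0.85 in sham rats (limma adjusted p = 0.0123) rests on the zeros and on the constant added before the logarithm, and it became 1.54 with 5 added in place of 1. In vagotomised rats the difference was 0.48 ± 0.85 (limma adjusted p = 0.746), which became -0.17 without vagotomised air library 2, the only library of that group at 0.

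Small-subunit factors assemble on the precursor as it is transcribed, in the particle called the small-subunit processome, which contains the U3 ribonucleoprotein. Wdr43, a subunit of the transcription-linked UTP-A complex, rose most among them together with Rrp12. Its values were 323, 399, 398, 358 and 311 normalised counts in sham air and 670.5 to 1165 with a median of 876 in sham ozone. With vagotomy they were 233 to 410.3 with a median of 393 in air and 545, 755, 843, 541 and 632 in ozone. The lowest ozone value lay above the highest air value in both surgery groups, by a wide margin in sham rats. Wdr43 rose 2.48-fold, 1.31 ± 0.16 on the log2 scale (limma adjusted p = 3.08e-06), and 1.89-fold, 0.92 ± 0.16 (limma adjusted p = 0.0003).

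Rrp12, which takes part in the export of pre-ribosomal subunits from the nucleus, had 70.5, 74.4, 79.9, 57.9 and 72.9 normalised counts in sham air and 126 to 210.1 with a median of 149 in sham ozone. Vagotomised rats had 68.7 to 104 with a median of 93.9 in air and 179, 169, 168, 147 and 140.0 in ozone. Ozone and air libraries were again fully apart, and Rrp12 rose by 1.08 ± 0.13 (limma adjusted p = 2.54e-06) and 0.82 ± 0.13 (limma adjusted p = 0.000128). Its vagotomised air libraries were higher than the sham air libraries by 0.35 ± 0.13, which did not pass (limma adjusted p = 0.9995).

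Wdr3, Tbl3, Pwp2 and Wdr36 are subunits of the UTP-B complex of the processome. Wdr3 was 302, 329, 376, 294 and 310.0 normalised counts in sham air, 473 to 638 with a median of 515 in sham ozone, 272 to 363 with a median of 347 in vagotomised air and 458, 529.9, 469, 421 and 421 in vagotomised ozone. It rose by 0.72 ± 0.10 and 0.45 ± 0.10 (limma adjusted p = 1.11e-05 and 0.00233) with no overlap. Tbl3 had the smallest spread within groups of all 51 members, a standard deviation of 0.12 on the log2 scale beside a median of 0.23 for the members and 0.28 for all genes. It was 343, 297, 363, 278 and 295 in sham air, 353 to 474 with a median of 403 in sham ozone, 289 to 348 with a median of 335 in vagotomised air and 462, 407, 457, 452 and 427 in vagotomised ozone. At that spread changes of 0.37 ± 0.09 and 0.42 ± 0.09 passed (limma adjusted p = 0.0034 and 0.00164), although 1 sham ozone library fell within the sham air range. Wdr36 rose by 0.34 and 0.35 at the edge of the threshold (limma adjusted p = 0.0425 and 0.0462). Leaving out 1 library ended its call in sham rats for sham air libraries 1, 2, 4 and 5 and all sham ozone libraries but the third (adjusted p up to 0.108), and in vagotomised rats for sham air libraries 2, 3 and 5, vagotomised air libraries 1, 4 and 5, sham ozone libraries 1, 2, 4 and 6 and vagotomised ozone libraries 2 to 5 (adjusted p up to 0.129, limma).

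The other small-subunit members that rose in both groups were Nop14, Ltv1, Utp15, Heatr1 and Tsr1. Ltv1 and Tsr1 act on late cytoplasmic precursors, Heatr1 and Utp15 belong with Wdr43 to the UTP-A complex, and Nop14 binds Noc4l. Ltv1 held 176, 166, 175, 156 and 164 normalised counts in sham air and 213 to 336 with a median of 254 in sham ozone, without overlap. It rose by 0.63 ± 0.15 in sham rats (limma adjusted p = 0.00251) and by 0.57 ± 0.15 in vagotomised rats (limma adjusted p = 0.0073). The rises of Nop14, Utp15, Heatr1 and Tsr1 were 0.66, 0.61, 0.46 and 0.30 in sham rats and 0.44, 0.56, 0.48 and 0.34 in vagotomised rats. Single libraries ended some of these calls in limma: in sham rats Utp15 and Heatr1 had adjusted p = 0.0504 and 0.0551 without sham air library 1. In vagotomised rats Nop14 had adjusted p = 0.0597 without vagotomised ozone library 4, Heatr1 0.0520 without vagotomised ozone library 2, and Utp15 0.0589 to 0.110 without vagotomised air library 1 or 5 or vagotomised ozone library 2, 3, 4 or 5 (limma). The call of Tsr1 in sham rats was lost under 2 of 38 alternatives, and its lowest change over the 38 was 0.20.

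Rrp9 and Imp3, both partners of the U3 RNA, together with Pwp2, Nob1 and Noc4l rose in sham rats and did not pass in vagotomised rats. Rrp9 was 49.1, 25.8, 41.8, 29.0 and 24.6 normalised counts in sham air and 50.1 to 113 with a median of 56.2 in sham ozone, 0.96 ± 0.23 (limma adjusted p = 0.00342). In vagotomised rats it differed by 0.54 ± 0.23 (limma adjusted p = 0.106), and without the 4 libraries low in the short ribosomal RNA it passed there too (0.69, limma adjusted p = 0.0388). Imp3 differed by 0.76 ± 0.24 (limma adjusted p = 0.02, and 0.0535 without sham air library 4) and 0.26 ± 0.24 (limma adjusted p = 0.489), and with 0.46 in vagotomised rats without those 4 (limma adjusted p = 0.0326). Noc4l differed by 0.44 ± 0.13 (limma adjusted p = 0.0142, and 0.0564 without sham air library 2) and 0.34 ± 0.13 (limma adjusted p = 0.0742).

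A further 6 small-subunit factors passed in neither comparison, namely Bms1, Ddx10, Imp4, Rcl1, Utp20 and Wdr75. Bms1, a GTPase of the processome, differed by -0.02 ± 0.12 in sham rats, the smallest change of all members there, and by 0.04 ± 0.12 in vagotomised rats, with 270.3, 284, 315, 270.2 and 279 normalised counts in sham air and 213 to 353 with a median of 292 in sham ozone. In vagotomised rats Bms1 was 222 to 295 with a median of 289 in air and 257, 311, 236, 268 and 343 in ozone, and the ranges overlapped throughout. The 95% interval was -0.28 to 0.24 in sham and -0.22 to 0.30 in vagotomised rats, so a change of the size that passed for Gnl3 or Wdr43 lies outside it. Imp4, a partner of Imp3, was 237, 184, 166, 162 and 179.6 in sham air, 146 to 400.0 with a median of 169.8 in sham ozone, 138 to 330.3 with a median of 185 in vagotomised air and 231, 178, 146, 179 and 153 in vagotomised ozone, with sham ozone library 3 far above the rest of its group. Imp4 differed by 0.07 ± 0.23 and -0.16 ± 0.23. The helicase Ddx10, with 277, 278, 297, 320.4 and 285 in sham air and 273 to 371 with a median of 311 in sham ozone, differed by 0.11 ± 0.11 and 0.08 ± 0.11. For Bms1, Imp4 and Ddx10 the sign changed under some alternatives.

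Of the large-subunit factors 11 of 15 rose in each surgery group, and Gnl3 had the smallest p of all 51 members in sham rats. Gnl3, nucleostemin, a nucleolar GTPase known from stem cells, was 328, 395, 445, 399.5 and 391 normalised counts in sham air and 823 to 1238 with a median of 923 in sham ozone. In vagotomised rats Gnl3 was 336 to 496 with a median of 429 in air and 549, 815, 1034, 808 and 644 in ozone. Every ozone library exceeded every air library of its surgery, and in sham rats the lowest ozone value was far above the highest air value. It rose 2.47-fold in sham rats (1.31 ± 0.15, limma adjusted p = 1.04e-06) and 1.81-fold in vagotomised rats (0.85 ± 0.15, limma adjusted p = 0.000246).

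Gnl2 and Gtpbp4 are GTPases of the same particle, needed for its maturation and export. Gnl2 held 253, 227, 199, 191 and 191 normalised counts in sham air and 352 to 410.5 with a median of 396 in sham ozone. Its vagotomised values were 162 to 256 with a median of 232 in air and 313, 303, 397, 317 and 298 in ozone, and neither pair of groups overlapped. Gnl2 rose by 0.87 ± 0.12 and 0.58 ± 0.12 (limma adjusted p = 9.31e-06 and 0.00104). Gtpbp4 was 261, 323, 316, 261 and 219.6 in sham air, 392 to 757 with a median of 651 in sham ozone, 147 to 365.184 with a median of 303 in vagotomised air and 359, 565, 800.4, 567 and 527 in vagotomised ozone. It rose by 1.17 ± 0.24 and 1.12 ± 0.24 (limma adjusted p = 0.000699 and 0.0014), the only member past 2-fold in both groups. Like Ddx21, Gtpbp4 was lowest of its group in each of the 4 libraries low in the short ribosomal RNA, and vagotomised ozone library 1 overlapped the air libraries. Without the 4 it rose by 1.30 and 0.90 with no overlap.

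Rrs1 takes part in the early assembly of the large subunit. Sham air libraries held 209.7, 184, 191, 133 and 107 normalised counts of it and sham ozone libraries 262 to 497 with a median of 327. Vagotomised libraries held 116 to 221 with a median of 175 in air and 317, 283, 352, 339.7 and 304 in ozone. Ozone was above air in all libraries of each surgery group, and Rrs1 rose by 1.05 ± 0.18 and 0.90 ± 0.18 (limma adjusted p = 9.44e-05 and 0.00073).

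Pes1, Bop1 and Wdr12 form the PeBoW complex, which is needed to process the precursor of the large-subunit RNAs, and all of them rose in both comparisons. In sham rats the rises were 0.52 ± 0.09, 0.71 ± 0.14 and 0.66 ± 0.12 (limma adjusted p = 0.000238, 0.000514 and 0.000238), and sham ozone did not overlap sham air for any of the 3. For Pes1 the libraries held 469, 501, 474, 488 and 478 normalised counts in sham air and 624 to 796 with a median of 676 in sham ozone. In vagotomised rats the rises were 0.28 ± 0.09, 0.53 ± 0.14 and 0.41 ± 0.12 (limma adjusted p = 0.0358, 0.00832 and 0.0154), and 1 vagotomised ozone library lay within the air range for each of them. The call of Wdr12 there was lost without vagotomised ozone library 5 (limma adjusted p = 0.0524), and that of Pes1 without any 1 of vagotomised air libraries 1, 2 and 5 and vagotomised ozone libraries 2 to 5 (limma adjusted p = 0.0596 to 0.129).

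Rrp1b, Nip7 and Noc2l also rose in both groups, by 0.74, 0.70 and 0.36 in sham rats and by 0.71, 0.74 and 0.41 in vagotomised rats. The call of Noc2l in sham rats was lost under 2 of 38 alternatives, and its lowest change over the 38 was 0.26. Nip7, a factor of late large-subunit processing, stood at 70.5, 58.5, 65.0, 52.1 and 43.1 normalised counts in sham air and 77.8 to 121 with a median of 91.8 in sham ozone, with no overlap. With vagotomy it stood at 40.5 to 63.0 with a median of 48.7 in air and 76.3, 69.1, 95.3, 89.1 and 84.0 in ozone, again with no overlap. The helicase Ddx18 was the 1 member that passed in vagotomised but not in sham rats, with 0.42 ± 0.10 (limma adjusted p = 0.00488) against 0.23 ± 0.10 in sham rats (limma adjusted p = 0.0991). Without the 4 libraries low in the short ribosomal RNA Ddx18 passed in sham rats as well (0.26, limma adjusted p = 0.0311). Mrto4, Noc3l and Nop16 passed in neither comparison, with 0.17, 0.14 and -0.15 in sham rats and 0.11, 0.24 and -0.15 in vagotomised rats.

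**Figure D3:**
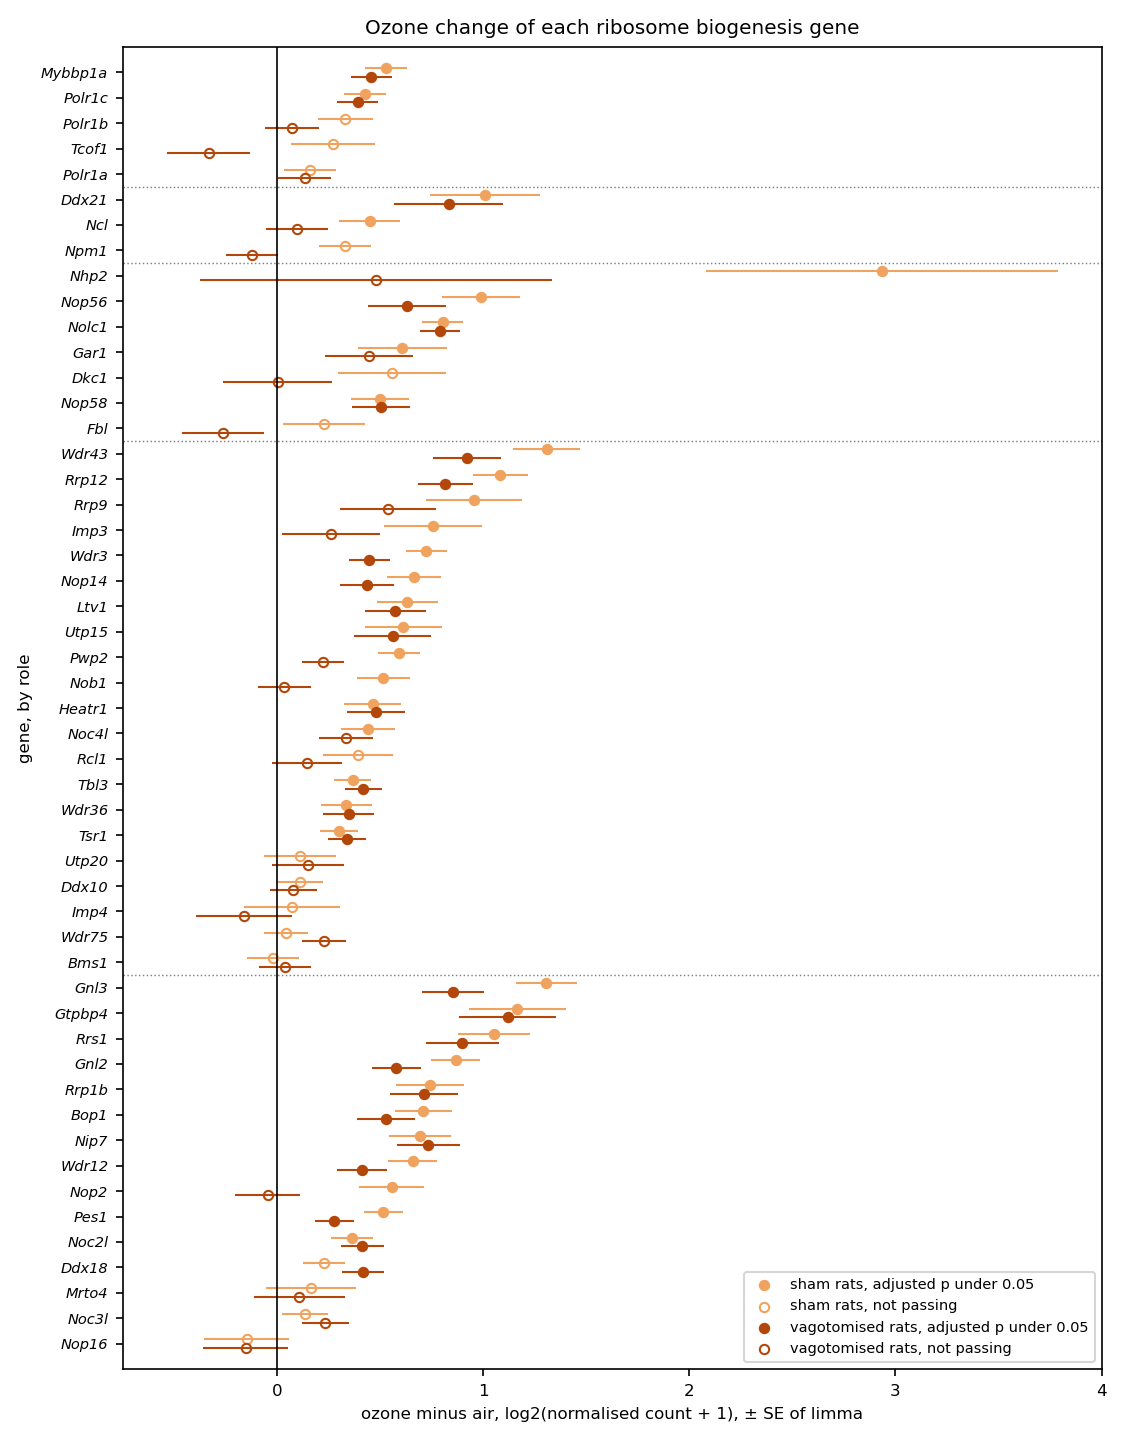
Change with ozone (horizontal axis, difference of mean log2(normalised count + 1), ± standard error of limma) of the 51 ribosome biogenesis genes, grouped by role, in sham and vagotomised rats; filled points passed the adjusted p of 0.05. Filled points lie to the right of 0 in each case, and Nhp2 has by far the widest error.

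**Figure D4:**
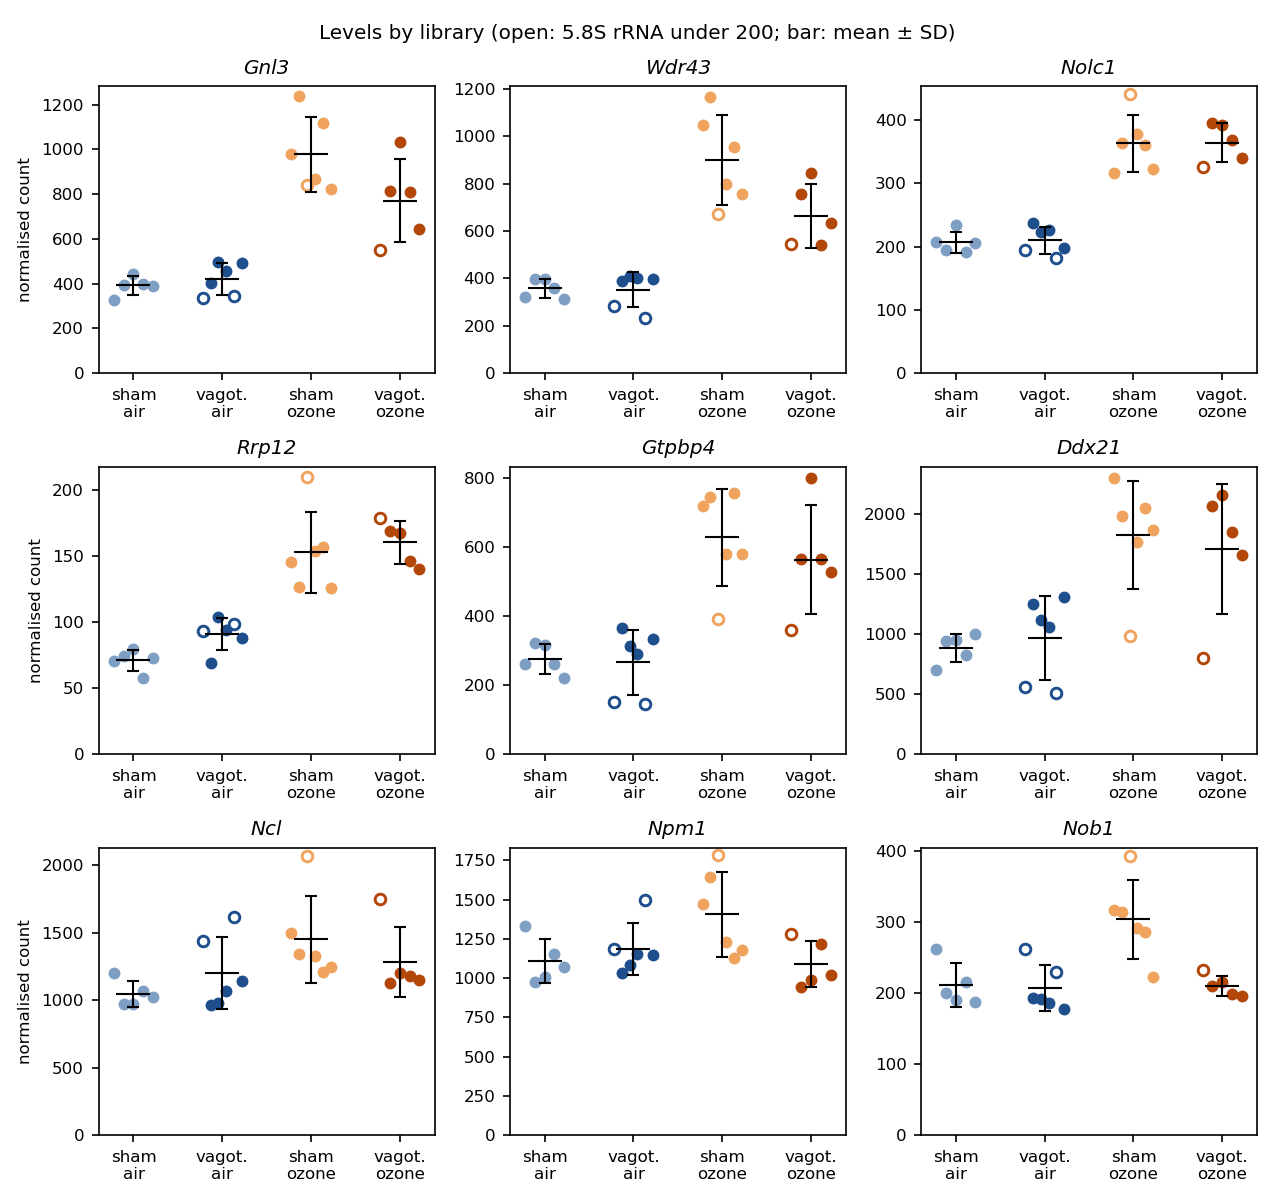
Normalised counts of 9 members in each library (points) of the 4 groups, with the mean and standard deviation as bars and open points for the 4 libraries low in the short ribosomal RNA. Gnl3, Wdr43, Nolc1 and Rrp12 show ozone groups fully above air groups, while Nob1 is high in sham ozone and near the air level in vagotomised ozone.

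Most members that passed did so in both surgery groups. Of the 35 that rose in sham rats 26 (74.3%) also rose in vagotomised rats, which is 96.3% of the 27 there. Over all genes the shared share was 56.3% of those that rose in sham rats and 71.6% of those that rose in vagotomised rats. The 9 members that passed in sham but not in vagotomised rats were Nop2, Ncl, Gar1, Nhp2, Imp3, Nob1, Noc4l, Pwp2 and Rrp9, and their differences in vagotomised rats ran from -0.04 to 0.54. The changes of the other 15, which passed in neither, ran from -0.15 to 0.56 in sham rats and from -0.33 to 0.24 in vagotomised rats.

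Whether the ozone change differed between the surgery groups was tested directly, and 0 members passed, as did 0 of all 12424 genes (0%, limma). At an unadjusted p under 0.05 there were 6 members and 1147 genes, and edgeR called 0 and DESeq2 16 of all genes. The change was smaller in vagotomised rats for 39 of 51 members, with a median difference of -0.16 beside -0.00 over all genes. The members with the smallest p were Nop2, Nob1 and Pwp2. Nop2, a methyltransferase of large-subunit RNA, was 64.2, 54.5, 69.7, 70.5 and 57.5 normalised counts in sham air and 71.9 to 127 with a median of 95.8 in sham ozone, with no overlap. With vagotomy Nop2 was 52.4 to 91.4 with a median of 70.0 in air and 79.1, 54.7, 55.5, 78.2 and 73.7 in ozone, and the groups overlapped. It rose by 0.56 ± 0.16 in sham rats (limma adjusted p = 0.0107) and differed by -0.04 ± 0.16 in vagotomised rats, a difference of -0.60 with a 95% interval of -1.07 to -0.14 (limma adjusted p = 0.429). For Nob1, the nuclease that makes the final cut of the small-subunit RNA, the difference was -0.48 (95% interval -0.86 to -0.10, limma adjusted p = 0.437; -0.31 without the 4 libraries low in the short ribosomal RNA), and for Pwp2 -0.37 (-0.67 to -0.07, limma adjusted p = 0.45).

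For vagotomy alone, in rats that breathed air, no member passed the test. In vagotomised against sham rats with air 0 of 51 members passed, the median was 0.03, and 0 of all genes (0%) were called by limma, edgeR or DESeq2. At an unadjusted p under 0.05 there were 2 members and 387 genes in limma. The members with the smallest p were Nhp2, Rrp12 and Pwp2, at 2.61, 0.35 and 0.19 (limma adjusted p = 0.9995 for each). After ozone 1 member was lower in vagotomised than in sham rats and 0 were higher, where 1.34% of all genes were called, 0.531% as lower, and the median of the members was -0.15 beside -0.01. That member was Nob1. Its levels were 222 to 393 with a median of 302 normalised counts in sham ozone and 232, 209, 215, 199 and 195 in vagotomised ozone, and 1 sham ozone library lay within the vagotomised range. With air the levels of Nob1 were 262, 199, 189.5, 215 and 188 in sham rats and 177 to 262 with a median of 192 in vagotomised rats, about the level of vagotomised ozone. The difference of Nob1, vagotomised minus sham in ozone, was -0.51 ± 0.13 (limma adjusted p = 0.0472). For 0 of 51 members was each vagotomised ozone library below each sham ozone library, against 0.942% of all genes. The call is weak, since leaving out any 1 of 16 libraries ended it, namely sham air 2 to 5, vagotomised air 2 to 4, sham ozone 1 to 5 and vagotomised ozone 2 to 5 (limma adjusted p = 0.0534 to 0.137). Leaving out an air library kept the difference at -0.51, since air libraries enter this call only through the shared spread and the adjustment. Without the 4 libraries low in the short ribosomal RNA Nob1 passed (-0.47, limma adjusted p = 0.0356). These comparisons share samples with the ozone comparisons above. With equal column totals the median of all genes in this comparison moved from -0.01 to 0.09 and that of the members from -0.15 to -0.05, and the share of called genes that were higher went from 60.2% to 85.5% (67.9% with equal upper quartiles and 73.3% with quantile normalisation).

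The 4 libraries low in the short ribosomal RNA stood at opposite ends for different members. In all 3 groups that hold such libraries, 7 members were lower in them than in every other library of the group (Wdr36, Utp15, Utp20, Ddx21, Ddx10, Gtpbp4 and Tsr1), and 10 were higher (Ncl, Npm1, Fbl, Nop56, Bop1, Dkc1, Nob1, Rcl1, Imp3 and Imp4). For 9 members, Mybbp1a, Polr1c, Gnl2, Nop58 and Nip7 among them, no group had all its low libraries below, or all above, every other library. A single low library could still lie at an end, as vagotomised air library 5 did for Nop58, lowest of its group at 116. No sham air library was of this kind. Without the 4 libraries 36 members rose in sham rats and 28 in vagotomised rats, with medians of 0.47 and 0.40, and 0 fell. What sets these libraries apart was not tested.

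Other genes of ribosome making, 127 further factors of which 125 were tested, were taken as the wider pathway. In sham rats 54 rose and 3 fell with a median of 0.37, and in vagotomised rats 34 rose and 3 fell with a median of 0.20 (21 rose without vagotomised ozone library 3). The smallest p belonged to Pak1ip1, a large-subunit factor, at 18.3 to 26.9 with a median of 18.8 normalised counts in sham air and 56.6 to 94.5 with a median of 64.2 in sham ozone. Pak1ip1 rose by 1.65 ± 0.17 and 1.12 ± 0.17 (limma adjusted p = 2.68e-07 and 5.23e-05). Dcaf13, a processome protein, held 740.5 to 1069 with a median of 827 in sham air and 1691 to 4423 with a median of 3456 in sham ozone. It rose by 1.81 ± 0.24 in sham rats (limma adjusted p = 7.44e-06), and by 1.25 ± 0.24 in vagotomised rats. Ftsj3, a methyltransferase of the precursor, rose by 0.80 ± 0.11 and 0.51 ± 0.11. In vagotomised rats Pop4, a protein of RNase P and RNase MRP, rose by 0.91 ± 0.15, and the small-subunit kinase Riok3 by 0.44 ± 0.08 (limma adjusted p = 0.000147 and 0.00027).

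Falls were few among these other genes and none were members of the 52. The helicase Dhx37 fell in both surgery groups, by 0.44 and by 0.46 (limma adjusted p = 0.00247 and 0.00209), with 177 to 211 with a median of 198 normalised counts in sham air and 131 to 161 with a median of 145 in sham ozone. Ttf1, the terminator of polymerase I, fell in sham rats by 0.52 (limma adjusted p = 0.00208) and differed by -0.21 ± 0.12 in vagotomised rats (limma adjusted p = 0.231). Pop1, of the same particles as Pop4, fell by 0.56 and 0.69 (limma adjusted p = 0.0469 and 0.0218), a call ended in sham rats by leaving out any 1 of sham air libraries 1 to 4, vagotomised air libraries 2, 4, 5 and 6, sham ozone libraries 1, 4, 5 and 6 and vagotomised ozone libraries 2 and 3 (limma adjusted p = 0.0506 to 0.105) and by vagotomised air library 1 or vagotomised ozone library 5 in vagotomised rats (limma adjusted p = 0.0570 and 0.0836). Ruvbl1 fell in vagotomised rats by 0.36 (limma adjusted p = 0.0441), and that call was ended by leaving out any 1 of sham air libraries 2 to 5, vagotomised air libraries 2 to 6, sham ozone library 6 and vagotomised ozone libraries 1 to 3 (limma adjusted p = 0.0502 to 0.120).

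The proteins of the finished ribosome were looked at as a list of their own. Of 79 cytosolic ribosomal protein genes tested 6 rose and 0 fell in sham rats, with a median of 0.12, and 0 rose and 1 fell in vagotomised rats, with a median of -0.10. Over all genes tested 14.6% rose and 13.8% fell in sham rats, and 11.4% rose and 9.63% fell in vagotomised rats. Reads on 57 small nucleolar RNA rows were summed per library, and the median of the sums was 1221 normalised counts in sham air, 1282 in vagotomised air, 4925 in sham ozone and 6063 in vagotomised ozone. The same sums were 97.2 to 149 in the 4 libraries low in the short ribosomal RNA. In the other libraries they were 912 to 1729 in sham air and 2640 to 6342 in sham ozone. Those of vagotomised rats were 989 to 3396 with air and 4223 to 8035 with ozone, so ozone and air did not overlap there. With all libraries in the fit, 0 of the 22 small nucleolar RNA rows tested passed in either comparison in limma (0 and 2 at an unadjusted p under 0.05). Their median differences were 0.66 in sham and 1.75 in vagotomised rats, with 19 and 22 of the 22 rows above 0. The 4 low libraries are part of that fit, so 0 passing does not show that these rows were unchanged. The difference between these lists and the assembly factors was not tested.

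Of the regulators listed beside the programme, Myc, the transcription factor best known for inducing these genes, did not pass as higher in either group. Its levels were 94.6 to 112 with a median of 97.5 normalised counts in sham air, 29.3 to 115 with a median of 56.5 in sham ozone, 37.2 to 229 with a median of 107 in vagotomised air and 23.3 to 49.6 with a median of 27.8 in vagotomised ozone. In vagotomised rats Myc fell by 1.77 with a standard error of 0.37 (limma adjusted p = 0.00142), and in sham rats it differed by -0.78 ± 0.37 (limma adjusted p = 0.125). Mlx, a partner in the wider Myc network, rose by 0.80 and 0.81 (limma adjusted p = 0.00037 and 0.000485), and Mnt, a repressor that competes with Myc for its partner, rose in sham rats by 1.02 ± 0.14 (limma adjusted p = 1.42e-05) and differed by 0.19 ± 0.14 in vagotomised rats (difference of the changes -0.83, limma adjusted p = 0.282). Of the other repressors of the network, Mxd1 and Mxd4 fell in both surgery groups, and Mxi1 did not pass (-0.26 and -0.14, limma adjusted p = 0.175 and 0.540). Mga, also of the network, did not pass either (0.21 and 0.02, limma adjusted p = 0.544 and 0.973). Mxd1 changed by -0.30 and -0.62 (limma adjusted p = 0.0483 and 0.000314), and Mxd4 by -0.28 and -0.26 (limma adjusted p = 0.0218 and 0.0417). The call of Mxd1 in sham rats held without sham air library 1 or 3, vagotomised air library 5 or sham ozone library 1 or 6 and was lost without any other library (limma adjusted p = 0.0504 to 0.162). Without the 4 libraries low in the short ribosomal RNA that call was lost too (-0.27, limma adjusted p = 0.0719). That of Mxd4 was lost in sham rats without sham air library 4 or 5 (limma adjusted p = 0.0675 to 0.0696), and in vagotomised rats without any vagotomised air library but the second, or without vagotomised ozone library 1, 2 or 3 (limma adjusted p = 0.0598 to 0.135), and without the 4 libraries low in the short ribosomal RNA (-0.18, limma adjusted p = 0.194). Max, the shared partner of Myc and its repressors, rose in sham rats by 0.24 (limma adjusted p = 0.0473) and differed by 0.20 in vagotomised rats (limma adjusted p = 0.109). The call of Max held without sham air library 4, vagotomised air library 2 or 6, sham ozone library 5 or 6 or vagotomised ozone library 1 or 4, was lost without any other library (limma adjusted p = 0.0504 to 0.105), and was lost with equal column totals (0.13, limma adjusted p = 0.329). It was also lost without the 4 libraries low in the short ribosomal RNA (0.20, limma adjusted p = 0.0788). Of 8 Myc network genes tested 3 rose and 2 fell in sham rats, and 1 rose and 3 fell in vagotomised rats. Of 7 genes of the mTORC1 pathway, a kinase route that promotes ribosome production, 3 rose in sham rats and 0 in vagotomised rats. Among them Sesn2 and Ddit4, which restrain mTORC1, rose in sham rats by 1.67 ± 0.29 and 0.98 ± 0.27 (limma adjusted p = 0.000147 and 0.00794) and differed by 0.12 ± 0.29 and -0.49 ± 0.27 in vagotomised rats (limma adjusted p = 0.819 and 0.217). The difference of these ozone changes was -1.55 and -1.47 and did not pass (limma adjusted p = 0.305 and 0.305). After ozone both were lower in vagotomised than in sham rats, with differences of -1.16 ± 0.29 and -1.33 ± 0.27 (limma adjusted p = 0.0456 and 0.0188). That call of Sesn2 held without sham air library 1, vagotomised air library 5, sham ozone library 3, 4 or 6 or vagotomised ozone library 1 and was lost without any other library (limma adjusted p = 0.0503 to 0.154), and that of Ddit4 was lost without sham ozone library 1 or 2 or vagotomised ozone library 4 or 5 (limma adjusted p = 0.0506 to 0.0665). The third gene that rose, Rps6kb1, the kinase that acts below mTORC1, rose by 0.33 ± 0.10 (limma adjusted p = 0.0146), and its call was lost with equal column totals (0.23, limma adjusted p = 0.142) and equal upper quartiles (0.24, limma adjusted p = 0.0609).

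Ribosome production is coupled to division in many cells, and markers of dividing cells were read beside the members. Of 10 such genes 9 were in the table and 6 were tested, and 1 rose and 3 fell with ozone in sham rats, with a median of -1.26. With ozone in vagotomised rats 1 of the 6 rose and 0 fell, with a median of 0.23. In vagotomised against sham rats with air 0 of the 6 passed in limma, 5 had an unadjusted p under 0.05, and the median was 1.21. After ozone 4 of the 6 were higher in vagotomised than in sham rats, with a median of 2.54. The summed level of the 9 was 93.7 to 162 normalised counts in sham air, 95.4 to 188 in sham ozone, 185 to 414 in vagotomised air and 167 to 600.0 in vagotomised ozone. Stellate cell and fibroblast markers also moved in sham rats, where 1 of 8 rose and 2 fell, and their summed level was 3750 to 7090 in sham air and 2596 to 5618 in sham ozone, with overlap, and 0 of 8 passed with ozone in vagotomised rats. Of the hepatocyte markers 2 of 8 rose in sham rats and 1 in vagotomised rats. Of the Kupffer cell and macrophage markers 1 of 7 tested fell in sham rats and 0 passed in vagotomised rats, and of the endothelial markers 1 of 7 fell in sham rats and 1 rose in vagotomised rats. Of the T, NK and B cell markers 1 of 2 tested fell in sham rats and 0 passed in vagotomised rats, with a summed level of 145 to 199 in sham air and 105 to 136 in sham ozone, without overlap. Of the neutrophil markers 1 of 2 tested fell in each surgery group, with summed levels of 42.5 to 72.9 in sham air and 20.7 to 42.5 in sham ozone. The summed neutrophil levels in vagotomised rats were 34.0 to 79.1 with air and 19.1 to 88.6 with ozone. Of 4 cholangiocyte and 3 erythroid markers tested 0 passed in limma in either ozone comparison. Of the lists with 0 passing in vagotomised rats, an unadjusted p under 0.05 was given by 2 stellate cell and fibroblast, 1 T, NK and B cell, 1 erythroid, 0 Kupffer cell and macrophage and 0 cholangiocyte markers, and in sham rats by 0 cholangiocyte and 0 erythroid markers. The part of these cell types in the results was not tested.

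The direction held under each scaling, though the counts moved. Scaling each library to the same total, or to the same upper quartile, left 27 and 29 members that rose in sham rats and 24 and 25 in vagotomised rats, with 0 that fell. Those scalings lowered the median of all genes in sham rats from 0.01 to -0.09 and -0.08, and that of the members to 0.41 and 0.43. They moved the share of called genes that rose in sham rats from 51.3% to 33.9% and 35.5%, and in vagotomised rats from 54.3% to 50.6% and 42.3%. Whichever of the 22 libraries was left out, 28 of the 35 calls in sham rats and 19 of the 27 in vagotomised rats remained, and 26 and 18 remained under each alternative run.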

How the data were processed

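RNA of 10 to 20 mg of liver per rat was sequenced, with 1 library per rat and 22 rats in 4 groups taken from the labels. The deposited values are normalised counts, a signal unit whose steps in each column are those of reads divided by a factor of the library. STAR, Partek, DESeq and DESeq2 were used with build rn6, per the submitters' processing notes. Their versions, the annotation, and the handling of strand and of reads with several matches are not given in the sources used here. Division by the smallest step of each column gave whole reads for 100% of values (tolerance 0.001), and libraries held 14098863 to 21141337 reads.

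Log2(normalised count + 1) of the 12424 genes with a mean of at least 10 normalised counts was fitted with limma 3.58.1 in R 4.3.3, 4 group means over all 22 libraries sharing 1 estimate of the spread. Contrasts were ozone against air within each surgery group, vagotomy against sham within each exposure, and the difference of the ozone changes. P-values were adjusted by Benjamini-Hochberg over all genes tested, and an adjusted p under 0.05 counted as a call. The alternatives were other pseudocounts, minimums and scalings, a replicate block, only the groups compared, robust variances, array weights, a covariate for the short ribosomal RNA (row 5_8S_rRNA), leaving out the 4 libraries low in the short ribosomal RNA, each library left out in turn, and count tests on the recovered reads. With the submitters' size factors edgeR 4.0.16 called 3537 genes in sham and 2666 in vagotomised rats, with TMM 3532 and 2685, and DESeq2 1.42.0 called 3750 and 2909. The fit was tested on simulated data.

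Members, role lists, other lists and markers were chosen with earlier results of these data known, so they are described by counts and medians and get no test as lists. Full values were given, in each ozone comparison, for the 3 members with the smallest p in each role, the 4 with a mean of at least 50 and the smallest change, and the 3 other genes of ribosome making with the smallest p in each direction if called, and for members called in a vagotomy comparison or, with none called, the 3 with the smallest p. The remaining members were named because the set gives them by name. No pair of libraries was a copy of another in 50 pairs compared within groups (lowest chi-square 9.75 per degree of freedom). Replicates are separate rats by the labels. Figures were drawn with matplotlib 3.10.9 in Python 3.11.15.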

Additional observations from a re-analysis of the deposited data

Results flagged for a closer look

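Single libraries stood far from the rest of their group for some members, by Dixon's test of the gap to the nearest library at its 95% limit. Of 176 groups of libraries examined, 17 had such a library, and chance gives about 1 in 20. The values are normalised counts.

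Sham ozone library 3, low in the short ribosomal RNA, stood far above the next library of its group by this test for 6 members. It held 510.3 for Bop1 with the next library at 346, 207 for Fbl with the next at 125, and 400.0 for Imp4 with the next at 203. It held 2072 for Ncl beside 1498, 210.1 for Rrp12 beside 157, and 497 for Rrs1 beside 342.

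Vagotomised ozone library 1, also low in the short ribosomal RNA, was the lowest of its group for Ddx10 at 229 beside 279.7, and the highest for Imp3 at 194 beside 142 and for Ncl at 1748 beside 1204. The vagotomised air libraries of that kind were the highest for Npm1, where library 5 held 1501 beside 1186, and for Pwp2, where library 1 held 203 beside 179.7.

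Other libraries stood out as well. Vagotomised ozone library 3 was the highest for Gar1 at 50.3 beside 38.6 and for Gnl2 at 397 beside 317. Mybbp1a was lowest in vagotomised ozone library 4, at 763 beside 934. Vagotomised air library 6 was the lowest for Tbl3 at 289 beside 328 and for Wdr3 at 272 beside 338. Nhp2 was at 8.92 in sham air library 2 and at 0 in the others of that group.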

How the results depend on the processing

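The count of members that rose ran from 27 to 38 in sham rats and from 23 to 30 in vagotomised rats over the 16 alternatives that kept each library or left out the 4 low ones, and from 32 to 36 and from 22 to 27 with single libraries left out. Of 133 results for single genes, 83 kept direction and call throughout, 29 lost a call, 11 gained one and 10 changed sign under at least 1 alternative. The cause of these changes was not tested.

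Replicate numbers did not pair the rats: the 31 same-numbered pairs correlated at -0.49 to 0.61 with a median of 0.03, 10 of them over 0.1, and 2 of 22 libraries correlated best with their own number. With the replicate number as a block 35 and 26 members rose, with medians of 0.54 and 0.38, and the difference for Nob1 in vagotomised rats was -0.028 against 0.04.

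Among other genes of ribosome making 5 fell in sham rats with array weights and without the 4 low libraries (2 to 5 with 1 library left out). In vagotomised rats 5 fell with array weights, and 21 to 38 rose with 1 library left out. All genes called in vagotomised rats were 3962 with array weights (1854 to 2860 with 1 library left out). The median of the members there was 0.35 with equal upper quartiles and 0.33 to 0.42 with 1 library left out.

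For vagotomy against sham in ozone, 0 members fell with no minimum count, equal column totals, equal upper quartiles, quantile normalisation or only the groups compared (0 to 1 with 1 library left out), and the median of the members was -0.047 with equal column totals. Of the other genes 1 rose with array weights and without the 4 low libraries. Of them 1 fell with a pseudocount of 5, a minimum of 50 and both edgeR fits, 2 with the short ribosomal RNA covariate and 5 with DESeq2 (0 to 1 with 1 library left out). All genes called were 86 with quantile normalisation, 14 with only the groups compared, 270 with array weights, 272 without the 4 low libraries, 321 with the short ribosomal RNA covariate and 366.0 with DESeq2, against 166 (19 to 217 with 1 library left out). For the difference of the ozone changes 13 genes were called with array weights and 16 with DESeq2 (0 to 1 with 1 library left out).

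The results that changed sign had not passed the test. In sham rats Bms1, at -0.02, was 0.057 with array weights, 0.035 without the 4 low libraries and -0.087 to 0.058 with 1 library left out. Imp4, at 0.07, was -0.028 with equal column totals, -0.015 with equal upper quartiles, -0.045 with array weights, -0.13 without the 4, and -0.13 to 0.17 with 1 left out. In vagotomised rats Bms1, at 0.04, was -0.023 with equal upper quartiles, -0.015 with array weights, -0.023 without the 4, and -0.034 to 0.10 with 1 left out. Without the 4 Imp4 was 0.027 and Ddx10 -0.0012, against -0.16 and 0.08. Sesn2, at 0.12, was -0.067 with array weights, -0.13 without the 4, and -0.15 to 0.31 with 1 left out. Nop2, at -0.04, was 0.00031 with quantile normalisation, 0.0011 with the short ribosomal RNA covariate, and -0.13 to 0.033 with 1 left out. Nob1, at 0.04, was -0.026 with equal upper quartiles and -0.0047 to 0.11 with 1 left out. With 1 left out Ncl, at 0.10, was -0.018 to 0.19 and Nhp2, at 0.48, was -0.17 to 1.03. Npm1 in sham rats passed with the short ribosomal RNA covariate, edgeR with the submitters' size factors and DESeq2 (adjusted p = 0.0392 to 0.0485).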
